A study of Mus musculus with 8 samples.

Results

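The genes described here are 39 genes of G2 and mitosis, taken by name from the cell cycle and read in colon tissue of mice carrying a gut yeast. All 39 were found by symbol among the 52636 Ensembl gene identifiers of the deposited count table, and all 39 were among the 16107 genes with enough counts to be tested. They were grouped by role into a proliferation marker and chromosome structure (2 genes), transcription regulators (2), cyclins and CDK1 (5), mitotic kinases of spindle poles and mitotic entry (2), the chromosomal passenger complex (4), spindle checkpoint kinases (3), kinetochore and centromere proteins (6), spindle motors and microtubule-associated proteins (7), central spindle and cytokinesis proteins (6), and partners of the anaphase-promoting complex (2).

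Colon RNA came from wild-type C57BL/6 female mice that were 6 weeks old and lived in gnotobiotic isolators, free of other microbes. Mice had received by gavage 100000000 colony-forming units of Candida tropicalis MYA-3404 (C. tropicalis, n = 2 libraries) or of Candida albicans SC5314 (C. albicans, n = 3), and controls (n = 3) belonged to the same germ-free strain. Colon was collected on day 30 of colonization. Libraries are numbered within a group, and nothing says that each is a separate mouse, so each p-value below reflects library-to-library variation, some of which may be technical. No isolator, cage or sequencing batch is labelled.

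In the adult colon, dividing cells sit in the lower crypt, where stem cells and their transit-amplifying daughters replace the surface epithelium. Transcripts of G2 and mitosis build up late in the cell cycle and are removed afterwards, so they are found mainly in cells that are cycling. Their promoters are held down in resting cells by the DREAM complex and switched on in G2 by the MuvB core with B-MYB (Mybl2) and then FOXM1 (Foxm1). The promoter element read by the MuvB core is the cell cycle genes homology region, TTTGAA, and it usually lies near the transcription start together with CCAAT boxes bound by NF-Y. Genes of DNA replication often carry E2F sites (here TTTNNCGC). In whole tissue, fewer cells of a type and less RNA per cell cannot be told apart.

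The promoter sequences of the members carried these elements. Of the 39 genes, 33 had an entry in the RefSeq promoter table (GRCm38.p6), as a window of 300 bases that runs from 250 bases before to 50 bases after the start. The 6 genes with no entry were Foxm1, Ccna2, Aurkb, Incenp, Tpx2 and Kif20a. The 4 windows below belong to the genes with the most TTTGAA and CCAAT matches among those given with a test. They read 5′ to 3′ along the gene, and the capitals mark every TTTGAA and CCAAT match on either strand (TTCAAA and ATTGG on the reverse strand). The first is Top2a, DNA topoisomerase II alpha, which untangles sister chromosomes (chr11:99024140-99024439, minus strand). The second is Ube2c, the ubiquitin-conjugating enzyme of the anaphase-promoting complex (chr2:164769679-164769978, plus strand). The third is Cdk1, the kinase that drives mitotic entry (chr10:69352863-69353162, minus strand). The last is Mki67, which encodes the proliferation marker Ki-67 (chr7:135716330-135716629, minus strand).
Top2a: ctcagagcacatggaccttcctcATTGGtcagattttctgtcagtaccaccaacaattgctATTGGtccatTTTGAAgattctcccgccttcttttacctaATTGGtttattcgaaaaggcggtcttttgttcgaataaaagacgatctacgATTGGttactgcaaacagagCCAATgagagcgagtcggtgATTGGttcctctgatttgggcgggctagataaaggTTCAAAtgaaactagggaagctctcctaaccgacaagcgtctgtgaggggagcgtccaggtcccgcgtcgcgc
Ube2c: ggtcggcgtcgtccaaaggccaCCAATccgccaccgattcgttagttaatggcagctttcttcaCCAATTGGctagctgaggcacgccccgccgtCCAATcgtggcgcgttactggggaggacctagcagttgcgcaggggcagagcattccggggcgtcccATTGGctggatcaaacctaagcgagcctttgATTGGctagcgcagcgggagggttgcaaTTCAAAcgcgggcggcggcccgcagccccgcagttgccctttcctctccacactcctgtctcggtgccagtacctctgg
Cdk1: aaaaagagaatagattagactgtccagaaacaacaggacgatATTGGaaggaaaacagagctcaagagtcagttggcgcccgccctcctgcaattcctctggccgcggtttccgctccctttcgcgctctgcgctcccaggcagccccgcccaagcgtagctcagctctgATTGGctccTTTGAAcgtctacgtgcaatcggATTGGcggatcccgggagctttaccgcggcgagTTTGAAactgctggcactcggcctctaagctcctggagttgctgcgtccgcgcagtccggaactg
Mki67: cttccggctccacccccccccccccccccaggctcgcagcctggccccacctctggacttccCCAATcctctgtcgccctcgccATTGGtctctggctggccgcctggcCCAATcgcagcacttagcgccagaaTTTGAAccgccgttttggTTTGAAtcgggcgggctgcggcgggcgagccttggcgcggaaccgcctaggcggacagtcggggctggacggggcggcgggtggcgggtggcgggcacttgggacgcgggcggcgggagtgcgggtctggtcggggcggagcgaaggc

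TTTGAA was found in 26 of the 33 member promoters (78.8%), against 6 of 34 promoters of the S phase list (17.6%) and 20.2% of the 27025 genes in the table. CCAAT was also found in 26 of 33 member promoters (78.8%), against 61.8% of S phase promoters and 41.1% of all genes. Both elements stood in one window for 23 members (69.7%), against 14.7% of S phase genes and 7.97% of all genes. The E2F motif showed the other arrangement, with 2 of 33 members (6.06%, Cdk1 and Racgap1), against 47.1% of S phase genes and 5.93% of all genes. In a list of 80 other mitosis genes, 66 had a promoter entry, and 54.5% of these held TTTGAA, 63.6% held CCAAT and 27.3% held the E2F motif. Within the member windows, 27 of 36 TTTGAA matches lay from 50 bases before to 50 bases after the start, with a median distance of 2 bases. Ect2 and Prc1 have 2 overlapping windows each, so that the 33 genes give 35 windows and the sites of these genes are counted in both. The 66 CCAAT matches lay further upstream, with a median distance of -67.5 bases and 22 of them inside that range. In Cdca8 a CCAAT match at 18 starts on the last base of a TTTGAA match at 13. In Ube2c the run CCAATTGG was counted once on each strand. A match is a description of the letters and not a measured binding site.

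**Figure D1:**
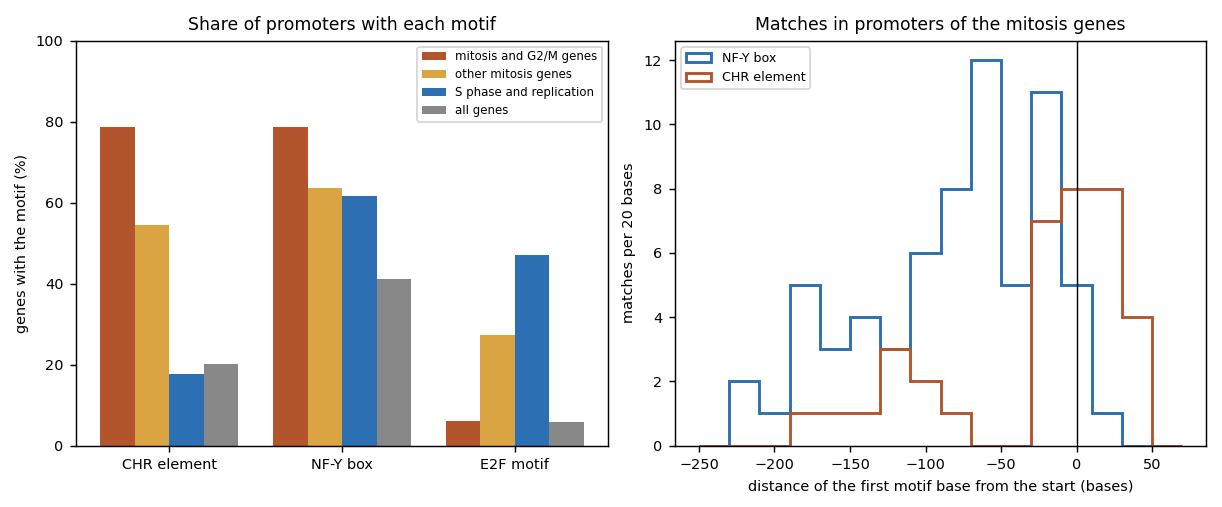
Left, percent of promoters with TTTGAA (CHR element), CCAAT (NF-Y box) and TTTNNCGC (E2F motif) in the 33 members, the other mitosis genes, the S phase list and all genes of the table. Right, number of TTTGAA and CCAAT matches by distance from the transcription start in the member windows, in bins of 20 bases. The TTTGAA matches gather around the start, with a median distance of 2 bases.

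All 39 genes were read in every library, with 28 to 2753 counts per gene and library. Levels across libraries are given in CPM, a gene's counts over those of its library in parts per 1000000, with library sizes adjusted by edgeR's TMM factors for differences in composition. Between genes, levels are compared in RPKM, which is CPM divided by exon length in kilobases (mean of the 8 libraries), where the members ran from 0.519 for Ndc80 to 55.4 for Plk1, with a median of 2.23. After Plk1 came Cdc20, the activator of the anaphase-promoting complex (15.4 RPKM), then Ccnb2 and Ube2c (11.0 RPKM each). Most spindle and kinetochore genes were low, such as Cenpf at 0.56 RPKM and Bub1 at 0.747 RPKM.

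Facts of the whole data set touch these values. The libraries held 16195376 to 19761098 counts. Summed over the markers of each tissue part, colon epithelium ran from 23264 to 31199 CPM, and small intestine and caecum markers summed to 345 to 593 CPM. Control 3 stood close to C. tropicalis in a pair of epithelial genes. Car1, a carbonic anhydrase of the colon surface, was at 2231 and 2255 CPM in the C. tropicalis libraries and 306, 432 and 180 CPM in the C. albicans libraries. Its control levels were 243, 388 and 1602 CPM in controls 1, 2 and 3. Cdx2, a transcription factor of intestinal identity, was at 26.3 and 28.6 CPM with C. tropicalis and 224, 470 and 378 CPM with C. albicans. It was at 339, 192 and 26.9 CPM in the controls. The members' medians against control are therefore also given without control 3. The labels do not say which stretch of the colon was sampled.

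The mitosis genes varied together across the 8 libraries. Without Plk1, whose pattern differed and is given separately, their summed level was 824 and 670 CPM in C. tropicalis 1 and 2. It was 590, 340 and 310 CPM in C. albicans 1, 2 and 3, and 789, 455 and 361 CPM in controls 1, 2 and 3. Both C. tropicalis libraries thus lay above all 3 C. albicans libraries, while control 1 lay between the C. tropicalis libraries. The ratio of group means was 1.81 for C. tropicalis over C. albicans, 1.40 for C. tropicalis over control and 0.77 for C. albicans over control.

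One library among the C. albicans libraries and one among the controls carried more of these transcripts than its partners. C. albicans 1 was the highest C. albicans library for 39 of 39 members, where 38.5% of all tested genes had that order. Control 1 was the highest control for 38 of 39 members, against 35.6% of all genes, and the exception was Plk1. C. albicans 1 stood at a median of 1.84 times the mean of C. albicans 2 and 3 (1.36 to 2.79), and control 1 at 2.02 times the mean of controls 2 and 3 (0.97 to 2.67). In the S phase list the same medians were 1.24 and 1.24. C. tropicalis 1 was above C. tropicalis 2 for 35 of 39 members, against 46.8% of all genes. Of the 8 libraries, C. tropicalis 1 was the highest for 18 members, C. tropicalis 2 and C. albicans 1 for 1 each and control 1 for 19. The shares of all tested genes were 14.6%, 14.1%, 5.05% and 13.2% in that order. The lowest was C. albicans 3 for 19 members, C. albicans 2 for 13, control 3 for 6 and control 2 for 1. Here the shares of all tested genes were 11.6%, 15.8%, 12.2% and 10.3%.

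**Figure D2:**
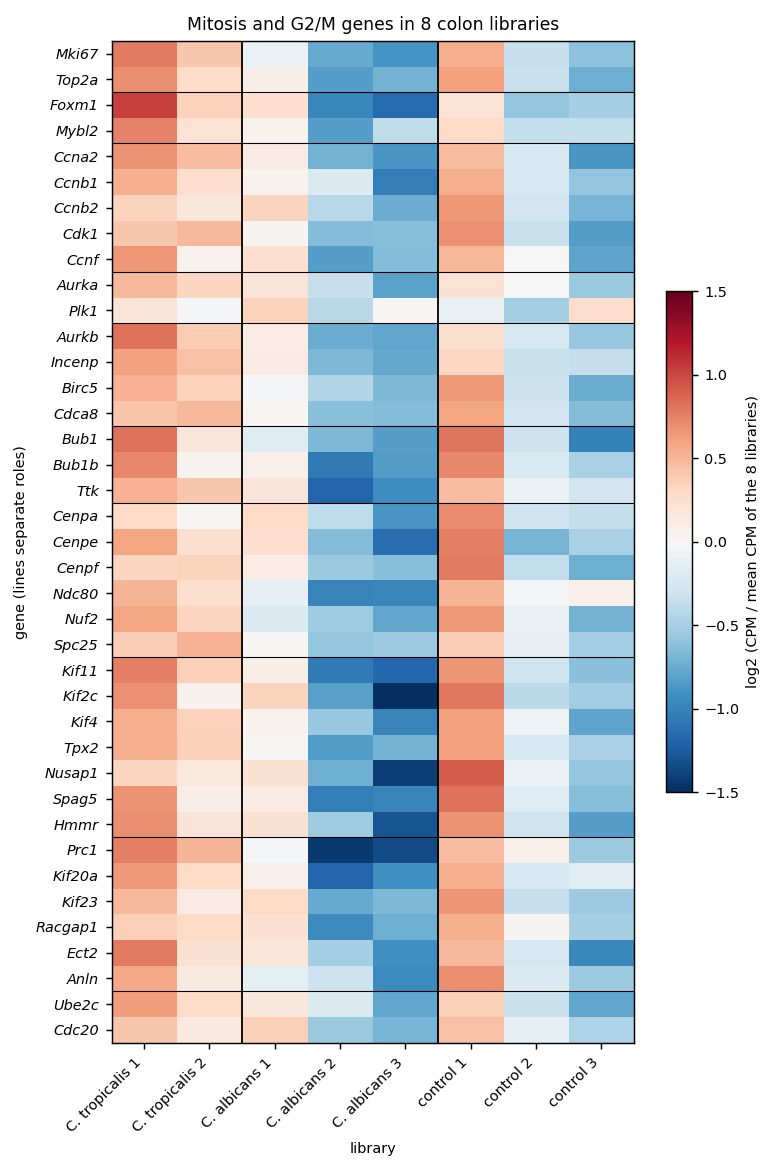
Level of each of the 39 genes in each of the 8 libraries, as the log2 ratio of its CPM to its mean CPM over the libraries, with genes ordered by role. The median over the members is 0.58 and 0.29 in C. tropicalis 1 and 2, 0.11, -0.67 and -0.80 in C. albicans 1, 2 and 3, and 0.59, -0.26 and -0.57 in controls 1, 2 and 3.

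The first comparison set the yeasts against each other. With C. tropicalis, all 39 genes had higher fitted levels than with C. albicans, where 53.7% of all tested genes did. The median log2 fold change, positive where the group named first is higher, was 0.86, against 0.04 over all genes, and the members ran from 0.07 for Plk1 to 1.41 for Prc1. Medians by role were between 0.60 and 1.03, apart from the pole and entry kinases at 0.37, a group of Aurka and Plk1. In edgeR's quasi-likelihood test, adjusted by Benjamini-Hochberg over all 16107 genes, 0 of 39 members passed the threshold of 0.05, where the share of all genes that passed was 0%. At an unadjusted p under 0.05, 16 members were higher and 0 were lower, against 8.83% of all genes higher and 14.4% lower. DESeq2 called 5 members higher (Mki67, Prc1, Aurkb, Incenp and Foxm1), against 1.34% of the 26954 genes to which it gave a p-value, low counts included. In 27 of 39 members both C. tropicalis libraries lay above all 3 C. albicans libraries, against 23.4% of all genes.

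The strength of this comparison depended on single libraries. Without C. albicans 1, 8 members passed edgeR's test as higher with C. tropicalis (Aurkb, Foxm1, Incenp, Kif11, Kif20a, Ndc80, Prc1 and Ttk), and the median log2 fold change was 1.20. In that fit 1315 of all tested genes passed in either direction, against 0 in the fit of all 8 libraries. Without control 1, which is in neither yeast group but enters the shared filter, scaling and estimate of spread, 1 member passed (Mki67). Other omissions gave 0 calls. The 16 members that were higher at an unadjusted p under 0.05 became 0 without C. tropicalis 1, 10 without C. tropicalis 2, 5 without C. albicans 2 and 4 without C. albicans 3. They became 32 without C. albicans 1, 28 without control 1, 11 without control 2 and 25 without control 3. The share of all genes at that level was counted only in the fit of all 8 libraries, so these counts have no background beside them. The lowest adjusted p without C. tropicalis 1 was 0.360, where the median log2 fold change was 0.69 with 38 of 39 members above 0.

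**Figure D3:**
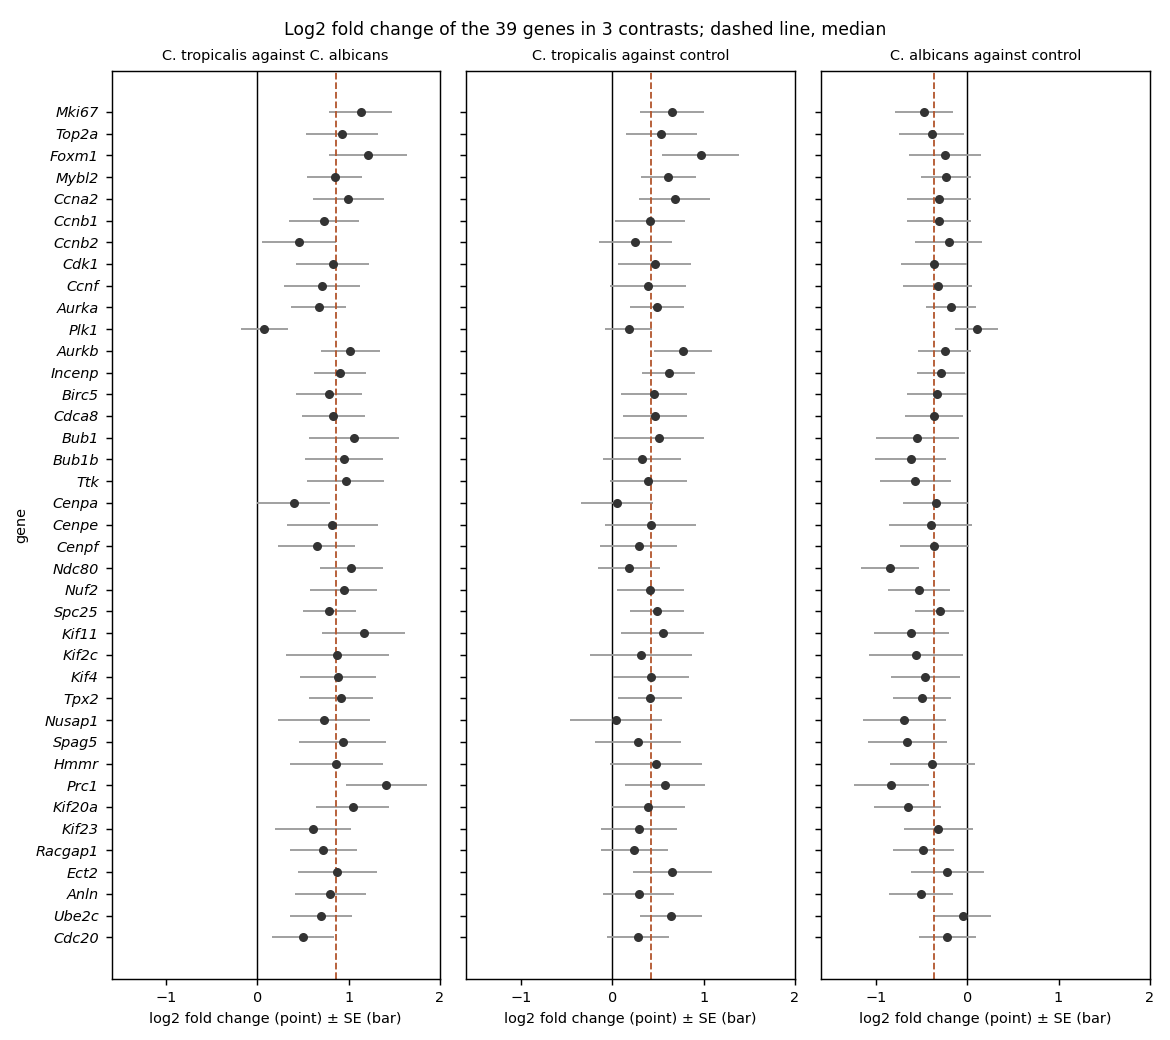
Log2 fold change with its standard error for the 39 genes in C. tropicalis against C. albicans, C. tropicalis against control and C. albicans against control, by role. All 39 lie above 0 in the first comparison with a median of 0.86, and no gene passed the edgeR threshold in any of them.

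Mki67 (ENSMUSG00000031004, chr7:135689784-135716361, minus strand) had 85.6 and 66.1 CPM in the C. tropicalis libraries and 47.2, 29.6 and 27.1 CPM in the C. albicans libraries. The groups did not overlap, and the log2 fold change was 1.13 (standard error, SE, 0.35, edgeR adjusted p = 0.103), the smallest adjusted p among the members. DESeq2 gave 1.12 with an adjusted p of 0.0173. Top2a had 66.1 and 49.6 CPM with C. tropicalis, against 43.3, 23.1 and 25 CPM with C. albicans. The groups were again apart, but its log2 fold change of 0.93 (SE 0.39) had an edgeR adjusted p of 0.198.

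The regulators of this program were measured too. Foxm1, the forkhead factor that activates G2 genes, was at 30.5 and 19.0 CPM with C. tropicalis, against 17.8, 7.61 and 6.71 CPM with C. albicans. The lower C. tropicalis library was just above C. albicans 1, and the log2 fold change was 1.21 (SE 0.43, edgeR adjusted p = 0.138). Mybl2, which encodes B-MYB, was at 24.1 and 16.8 CPM with C. tropicalis, against 15, 8.14 and 11.0 CPM with C. albicans, a log2 difference of 0.85 (SE 0.30, edgeR adjusted p = 0.144).

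Among cyclins and CDK1, Ccna2 (cyclin A2, of S phase and G2) had 30.2 and 26.0 CPM with C. tropicalis, against 20.5, 11.5 and 10.3 CPM with C. albicans. Its log2 fold change was 0.99 (SE 0.39, edgeR adjusted p = 0.171). Cdk1 had 21.9 and 23.0 CPM with C. tropicalis, against 16.9, 10.5 and 10.6 CPM with C. albicans, with a log2 fold change of 0.82 (SE 0.40, edgeR adjusted p = 0.252). Both genes were apart between the groups. Ccnb1 (cyclin B1, the mitotic partner of CDK1) had 12.6 and 10.3 CPM, against 8.99, 7.45 and 4.21 CPM with C. albicans, a log2 fold change of 0.73 (SE 0.38, edgeR adjusted p = 0.292). Ccnb2 and Ccnf overlapped between the yeasts.

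The chromosomal passenger complex corrects faulty spindle attachments and later guides cytokinesis. In this complex all 4 genes were apart between the yeasts, against 23.4% of all genes. Aurkb, its kinase Aurora B (ENSMUSG00000020897, chr11:69045647-69051664, plus strand), had 32.2 and 24.0 CPM with C. tropicalis, against 19.9, 11.0 and 10.7 CPM with C. albicans. The log2 fold change was 1.02 (SE 0.32, edgeR adjusted p = 0.106). Incenp, the scaffold of the complex, had 50.7 and 45.3 CPM with C. tropicalis, against 36.2, 20.9 and 19.6 CPM with C. albicans, a log2 fold change of 0.91 (SE 0.29, edgeR adjusted p = 0.110). Birc5 (survivin) and Cdca8 (borealin) had log2 fold changes of 0.79 and 0.83.

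Spindle checkpoint kinases hold back anaphase until every chromosome is attached. Bub1 was at 5.71 and 3.68 CPM with C. tropicalis, against 2.87, 2.05 and 1.83 CPM with C. albicans, a log2 fold change of 1.06 (SE 0.49, edgeR adjusted p = 0.238). Ttk (MPS1) was apart as well, with a log2 fold change of 0.97, whereas Bub1b (BUBR1) overlapped, since its 16.0 CPM in C. tropicalis 2 lay under the 16.2 CPM of C. albicans 1.

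Of the 6 kinetochore and centromere genes, 4 were apart between the yeasts (Cenpf, Ndc80, Nuf2 and Spc25), against 23.4% of all genes. Ndc80, the microtubule-binding subunit of the outer kinetochore, had 4.80 and 4.02 CPM with C. tropicalis, against 3.09, 1.68 and 1.71 CPM with C. albicans, with a log2 fold change of 1.03 (SE 0.34, edgeR adjusted p = 0.123). Cenpa, the centromeric form of histone H3, had the smallest difference after Plk1. It was at 15 and 12.5 CPM with C. tropicalis, against 15.1, 9.45 and 6.71 CPM with C. albicans, and the log2 fold change of 0.40 (SE 0.40, edgeR adjusted p = 0.598) was about the size of its error.

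Motors and microtubule-associated proteins build and focus the spindle. Kif11 (Eg5, which pushes the poles apart) had 18.3 and 13.9 CPM with C. tropicalis, against 11.6, 5.20 and 4.82 CPM with C. albicans, a log2 fold change of 1.16 (SE 0.45, edgeR adjusted p = 0.171). Tpx2, which activates Aurora A on the spindle, had 23.0 and 20.3 CPM, against 16.0, 8.82 and 9.63 CPM with C. albicans, a log2 fold change of 0.91 (SE 0.35, edgeR adjusted p = 0.166). Kif4 was apart too, while Kif2c, Nusap1, Spag5 and Hmmr overlapped, with C. albicans 1 above C. tropicalis 2 in each.

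In the central spindle and cytokinesis group, 5 of 6 genes were apart, against 23.4% of all genes. Prc1, which bundles the antiparallel microtubules of the central spindle (ENSMUSG00000038943, chr7:80294450-80316259, plus strand), had 11.2 and 9.46 CPM with C. tropicalis, against 6.58, 2.47 and 2.62 CPM with C. albicans. Its log2 fold change was the largest of the members at 1.41 (SE 0.44, edgeR adjusted p = 0.107). Racgap1, part of centralspindlin, had 31.9 and 30.5 CPM, against 29.1, 12.8 and 14.9 CPM with C. albicans, a log2 fold change of 0.72 (SE 0.37, edgeR adjusted p = 0.278). The exception that overlapped was Kif23, the motor partner of Racgap1, at 16.8 and 13.1 CPM with C. tropicalis, against 14.8, 7.14 and 7.50 CPM with C. albicans.

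The partners of the anaphase-promoting complex, which triggers the exit from mitosis, were measured in Ube2c and Cdc20. Ube2c had 44.4 and 35.0 CPM with C. tropicalis, against 32.2, 24.8 and 16.7 CPM with C. albicans, and a log2 fold change of 0.69 (SE 0.34, edgeR adjusted p = 0.261). Cdc20 overlapped, with 38 and 31.7 CPM with C. tropicalis, against 36.6, 19.5 and 17.7 CPM with C. albicans, and its log2 fold change was 0.50 (SE 0.34, edgeR adjusted p = 0.420).

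Against germ-free controls, C. tropicalis also had higher fitted levels of all 39 genes, where 47.9% of all tested genes did. The median log2 fold change was 0.42, against -0.02 over all genes, and the members ran from 0.03 for Nusap1 to 0.97 for Foxm1. By edgeR's adjusted p 0 of 39 passed, against 0.0310% of all genes. At an unadjusted p under 0.05, 2 members were higher (Aurkb and Foxm1), against 7.33% of all genes higher, so the members' share was no larger than the background. DESeq2 called 0 members, against 1.44% of its 26954 genes. In 5 members (Foxm1, Aurka, Aurkb, Incenp and Prc1) both C. tropicalis libraries lay above all 3 controls, against 16.0% of all genes.

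Control 1 decided the overlap. Both C. tropicalis libraries lay above controls 2 and 3 in 38 of 39 members, against 21.5% of all genes, and control 1 lay above both C. tropicalis libraries in 19 members and below both in 6. Without control 1 the median log2 fold change was 0.84, and without control 3 it was 0.20 with 36 of 39 members above 0. The 2 members higher at an unadjusted p under 0.05 became 20 without control 1 and 0 without control 2 or control 3. The share of all genes at that level was not counted in these fits. Without C. tropicalis 1 the median log2 fold change was 0.29 with 34 of 39 members above 0. No member passed edgeR's adjusted threshold in any of these fits.

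Foxm1 had 30.5 and 19.0 CPM with C. tropicalis, against 17.4, 10.0 and 10.6 CPM in controls. The groups were apart, with a log2 fold change of 0.97 (SE 0.43, edgeR adjusted p = 0.324). Aurkb had 32.2 and 24.0 CPM with C. tropicalis, against 21.7, 15.3 and 12.4 CPM in controls, a log2 fold change of 0.77 (SE 0.32, edgeR adjusted p = 0.306). Incenp had 50.7 and 45.3 CPM with C. tropicalis, against 41.4, 26.4 and 26.1 CPM in controls, a log2 fold change of 0.62 (SE 0.29, edgeR adjusted p = 0.344). These genes were the 3 with the smallest p.

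Mki67 showed the more usual pattern, with 85.6 and 66.1 CPM with C. tropicalis, against 72.8, 39.2 and 32.5 CPM in controls. Control 1 lay between the C. tropicalis libraries, and the log2 fold change was 0.66 (SE 0.35, edgeR adjusted p = 0.389). Top2a, Mybl2, Ccna2, Ccnb1, Cdk1, Bub1, Kif11, Tpx2 and Ube2c had log2 fold changes of 0.42 to 0.68, with edgeR adjusted p from 0.365 to 0.631. Small differences were measured in Cenpa, at 15 and 12.5 CPM with C. tropicalis, against 20.2, 10.0 and 9.63 CPM in controls (log2 fold change 0.05, SE 0.40, edgeR adjusted p = 0.962), and in Ndc80 (0.18, SE 0.34, edgeR adjusted p = 0.824). Racgap1 and Cdc20 had log2 fold changes of 0.24 and 0.28, with edgeR adjusted p of 0.775 and 0.710.

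With C. albicans, 38 of 39 genes had lower fitted levels than in controls, where 51.8% of all tested genes did, and Plk1 was the exception. The C. albicans and C. tropicalis comparisons with control use the same 3 control libraries. The median log2 fold change was -0.37, against -0.02 over all genes, with the lowest value at -0.85 for Ndc80. By edgeR's adjusted p 0 of 39 passed, against 0.0435% of all genes. At an unadjusted p under 0.05, 1 member was lower (Ndc80), against 6.31% of all genes lower. DESeq2 called 0 members, against 1.72% of its 26954 genes. Ndc80 was also the 1 member with all C. albicans libraries below all controls, against 9.57% of all genes.

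Ndc80 had 3.09, 1.68 and 1.71 CPM with C. albicans, against 4.80, 3.34 and 3.55 CPM in controls, and a log2 fold change of -0.85 (SE 0.32, edgeR adjusted p = 0.275). Prc1 had 6.58, 2.47 and 2.62 CPM with C. albicans, against 9.2, 7.03 and 4.57 CPM in controls, a log2 fold change of -0.83 (SE 0.41, edgeR adjusted p = 0.354). Kif20a, a kinesin of the central spindle, had 5.96, 2.47 and 2.99 CPM with C. albicans, against 8.17, 4.71 and 5.06 CPM in controls, a log2 fold change of -0.65 (SE 0.37, edgeR adjusted p = 0.405). For Prc1 and Kif20a the groups overlapped, since C. albicans 1 lay above the lowest control.

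The remaining members given with a test lay closer to 0. Mki67 had 47.2, 29.6 and 27.1 CPM with C. albicans, against 72.8, 39.2 and 32.5 CPM in controls, with a log2 fold change of -0.48 (SE 0.32, edgeR adjusted p = 0.474). Ube2c had 32.2, 24.8 and 16.7 CPM with C. albicans, against 36.9, 22.8 and 16.8 CPM in controls, and its log2 fold change was -0.05 (SE 0.31, edgeR adjusted p = 0.944). Top2a, Foxm1, Mybl2, Ccna2, Ccnb1, Cdk1, Aurkb, Bub1, Cenpa, Kif11, Tpx2, Racgap1 and Cdc20 had log2 fold changes of -0.61 to -0.22, with edgeR adjusted p from 0.458 to 0.777. The direction rested on control 1, since without it the median log2 fold change was 0.02 with 21 of 39 members above 0. Without control 3 the median was -0.63 with 3 members lower at an unadjusted p under 0.05. Without C. albicans 1 it was -0.70 with 13 such members, and without C. albicans 3 it was -0.20 with 0. The share of all genes at that level was not counted in these fits. No member passed the adjusted threshold in these fits.

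Plk1, the polo-like kinase of mitotic entry and spindle poles (ENSMUSG00000030867, chr7:122159439-122169873, plus strand), did not share the pattern. It had 139 and 121 CPM in the C. tropicalis libraries, 155, 91.2 and 124 CPM in the C. albicans libraries and 113, 86.0 and 146 CPM in the controls. The highest of the 8 libraries was C. albicans 1, the lowest was control 2, and control 3 was the highest control. Its log2 fold change was 0.07 for C. tropicalis against C. albicans (SE 0.26, edgeR adjusted p = 0.898), 0.18 for C. tropicalis against control (SE 0.26, edgeR adjusted p = 0.765) and 0.10 for C. albicans against control (SE 0.23, edgeR adjusted p = 0.843). Aurka, the Aurora A kinase with which it shares the spindle poles, had 21.4 and 19.1 CPM with C. tropicalis, 17.4, 12 and 8.72 CPM with C. albicans and 17.7, 15.2 and 10.3 CPM in controls.

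The neighbour of Plk1 had a like pattern. Ern2, which encodes the stress sensor IRE1 beta of gut epithelium, lies tail to tail with Plk1 on the other strand (chr7:122169893-122186207), and its annotated end is 19 bases from that of Plk1. Ern2 had 125 and 103 CPM with C. tropicalis, 134, 70.7 and 100.2 CPM with C. albicans and 91.7, 83.1 and 114 CPM in controls. The ratio of Plk1 to Ern2 stayed between 1.03 and 1.29 in the 8 libraries. An unspliced model on the Ern2 strand, Gm44985, overlaps 156 bases of Plk1 exons and held 5702 counts, against 17221 for Plk1. Gm44985 had 30.2 and 36.6 CPM with C. tropicalis and 41.8, 41.8 and 37.0 CPM with C. albicans. Its control levels were 54.8, 36.4 and 43.5 CPM. Its highest library was thus control 1, where that of Plk1 was C. albicans 1. The NEBNext Ultra kit used here loses strand information. Reads shared by both transcripts therefore cannot be assigned, and the part of Ern2 transcripts in the Plk1 counts was not tested.

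**Figure D4:**
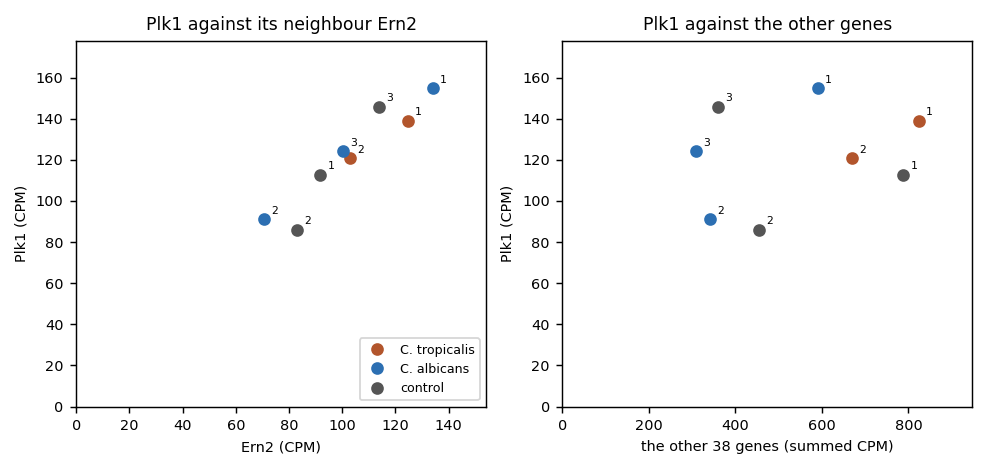
Level in CPM of Plk1 in each library against Ern2 (left) and against the summed level of the other 38 members (right), coloured by group. The ratio of Plk1 to Ern2 is 1.03 to 1.29, while C. albicans 3 and control 3 combine 124 and 146 CPM of Plk1 with low sums of the other members (310 and 361 CPM).

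Other members share exon bases with a gene on the opposite strand. The longest overlaps were of Kif20a with Cdc23 (1271 bases, 794 counts of the member and 3357 of the neighbour over the 8 libraries), Prc1 with Rccd1 (911 bases, 935 and 1266 counts) and Kif4 with Pdzd11 (832 bases, 931 and 2471 counts). Cdc20 shares 53 bases with Elovl1 (4047 and 16002 counts). Shorter or weaker overlaps involve Ccna2, Cdca8, Nusap1 and Ube2c. The values of these genes are uncertain to that extent. Of the named pseudogenes, Ccnb2-ps held 127 counts, against 2373 for Ccnb2, and those of Ccnb1 and Kif4 held 1 and 0.

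Further cell cycle lists place the members. No gene of any of these lists passed edgeR's adjusted threshold in any comparison. The S phase and replication list, with 39 of 40 genes tested, was above 0 for all 39 in C. tropicalis against C. albicans, with a median log2 fold change of 0.78. Of these, 36 had an unadjusted p under 0.05, where 8.83% of all genes were higher at that level. All 39 were apart between the groups, against 23.4% of all genes. DESeq2 called 24, against 1753 of its 26954 genes in either direction, of which 362 were higher (1.34% of the 26954). Rrm1, a ribonucleotide reductase subunit, had 59.6 and 55.9 CPM with C. tropicalis, against 32.7, 22.0 and 27.7 CPM with C. albicans, a log2 fold change of 1.07 (SE 0.20, edgeR adjusted p = 0.065).

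Against control, the S phase list had a median log2 fold change of 0.57 for C. tropicalis, with 38 of 39 above 0. In 29 of them both C. tropicalis libraries lay above all controls, against 16.0% of all genes. Mcm3, of the replicative helicase, had 75.1 and 67.0 CPM with C. tropicalis, against 43.2, 42.9 and 39.5 CPM in controls, a log2 fold change of 0.76 (SE 0.20, edgeR adjusted p = 0.206). For C. albicans against control the S phase median was -0.24, and E2f2, an activating E2F factor, had the smallest p (log2 fold change -0.61, SE 0.15, edgeR adjusted p = 0.177). In C. tropicalis against C. albicans the genes that lay apart were 27 of 39 members and 39 of 39 S phase genes, against 23.4% of all genes. The difference between the lists was not tested.

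The list of 80 other mitosis genes ran alongside the members. Its medians were 0.75 for C. tropicalis against C. albicans, 0.39 for C. tropicalis against control and -0.39 for C. albicans against control. Between the yeasts 76 were above 0, against 53.7% of all genes. There 53 lay apart and higher, against 23.4% of all genes, and 2 lay apart and lower. DESeq2 called 14 in either direction, against 1753 of its 26954 genes. Against control, 70 were above 0 for C. tropicalis (47.9% of all genes) and 73 below 0 for C. albicans (51.8%). The list's smallest p values came from Shcbp1, a cytokinesis protein, in the first comparison (log2 fold change 1.40, SE 0.35, edgeR adjusted p = 0.074). In the second they came from Tuba1b, an alpha tubulin (0.63, SE 0.14, edgeR adjusted p = 0.160), and in the third from Cenpl, a centromere protein (-1.04, SE 0.34, edgeR adjusted p = 0.252).

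Lists of the machinery that is present through the cycle had medians nearer 0. The 16 genes of the anaphase-promoting complex had medians of 0.13, 0.06 and -0.13 in C. tropicalis against C. albicans, C. tropicalis against control and C. albicans against control. Their smallest p values were in Fbxo5 (EMI1), an inhibitor of the complex that is itself cycle-regulated, in the first comparison (log2 fold change 0.85, SE 0.24, edgeR adjusted p = 0.085) and the last (-0.70, SE 0.22, edgeR adjusted p = 0.242), and in the enzyme gene Ube2s in the second (0.28, SE 0.14, edgeR adjusted p = 0.370). The 14 genes of the DREAM and MuvB list had medians of 0.25, 0.12 and -0.09 in the same order. That list is wider than the subunits and includes the related genes Rb1, Dyrk1a and Mybl1. In C. tropicalis against C. albicans 10 of them were above 0 (53.7% of all genes) and 7 lay apart and higher (23.4%). At an unadjusted p under 0.05, 3 were higher (8.83% of all genes). Tfdp1, the partner of E2F factors, had the smallest p in the first comparison (0.48, SE 0.14, edgeR adjusted p = 0.094) and the second (0.59, SE 0.14, edgeR adjusted p = 0.168). In the third it was E2f4, the repressor subunit (0.30, SE 0.15, edgeR adjusted p = 0.347).

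The 23 tested genes of G1 control (of 24) had medians of 0.15, 0.15 and 0.08 in that order. Ccnd2, cyclin D2, led in the first (0.90, SE 0.23, edgeR adjusted p = 0.074) and Wee1, the kinase that restrains CDK1, in the second (1.21, SE 0.22, edgeR adjusted p = 0.129). In the third Btg1, an antiproliferative gene, led with a log2 fold change of -0.87 (SE 0.14, edgeR adjusted p = 0.073). Directions within this G1 list were mixed. Between the yeasts 11 genes lay apart and higher with C. tropicalis (23.4% of all genes), and 4 lay apart and lower. For C. tropicalis against control 9 lay apart and higher (16.0% of all genes), and 6 lay apart and lower. Crypt stem and progenitor genes, with 18 of 20 tested, had medians of 0.05, 0.17 and 0.10. Their smallest p values were in Nkd1, a Wnt target (-1.20, SE 0.27, edgeR adjusted p = 0.067), in Rnf43, which removes Wnt receptors (0.89, SE 0.29, edgeR adjusted p = 0.254), and in Rgmb, a BMP co-receptor (0.71, SE 0.17, edgeR adjusted p = 0.166).

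**Figure D5:**
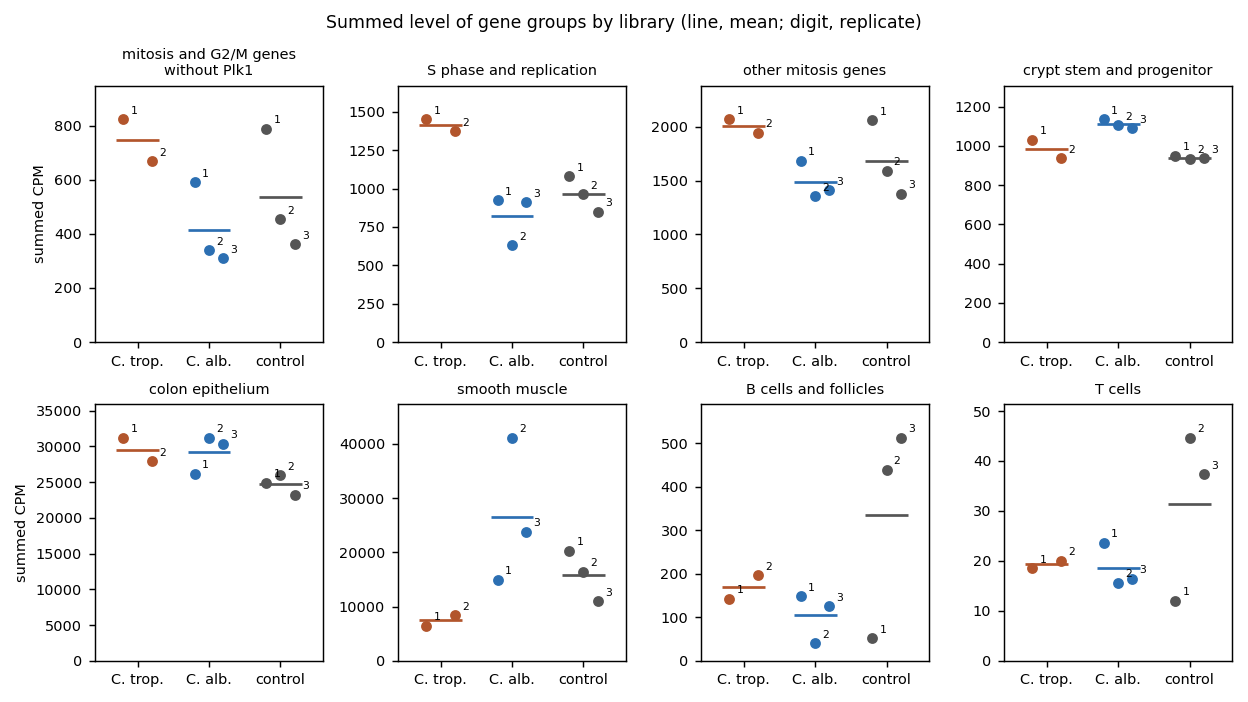
Summed level in CPM of the 38 members without Plk1, of other cell cycle lists and of cell type markers in each of the 8 libraries, by group. The mitosis sum is 824 and 670 CPM with C. tropicalis and 590, 340 and 310 CPM with C. albicans, while smooth muscle markers run the other way between the yeasts.

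Markers of other cells differed between the same libraries. All 22 smooth muscle markers were lower with C. tropicalis than with C. albicans at edgeR's unadjusted p under 0.05, against 14.4% of all genes. Their sum was 6476 to 8398 CPM with C. tropicalis, 14922 to 41089 CPM with C. albicans and 10994 to 20300 CPM in controls. Within controls the order was different, since control 1 had both the highest muscle sum and the highest mitosis sum. When a smooth muscle score entered the fit as a covariate, the members' median log2 fold change for C. tropicalis against C. albicans was 0.85, with fewer members past the unadjusted threshold. In that fit 1 member was higher and 1 lower at an unadjusted p under 0.05, against 16 and 0 without the score, and the lowest edgeR adjusted p was 0.764. Both C. tropicalis libraries had lower muscle sums than every other library, so that fit cannot cleanly separate the muscle score from C. tropicalis. Taken per unit of epithelial marker level (summed CPM of the 38 genes for every 1000 CPM of epithelial markers), the values were 26.4 and 24.0 with C. tropicalis, 22.6, 10.9 and 10.2 with C. albicans and 31.7, 17.5 and 15.5 in controls.

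Lymphoid tissue also holds dividing cells. B cell and follicle markers summed to 143 to 197 CPM with C. tropicalis and 39.8 to 148 CPM with C. albicans. In controls 1, 2 and 3 they summed to 51.5, 440 and 513 CPM, so control 1, the highest in mitosis genes, was the lowest control in B cell markers. T cell markers summed to at most 44.6 CPM in any library, and plasma cell markers to 574 to 651 CPM with C. tropicalis, 711 to 777 CPM with C. albicans and 445 to 609 CPM in controls. Germinal centre markers summed to 86.9 to 103 CPM with C. tropicalis, 116 to 234 CPM with C. albicans and 94.8 to 155 CPM in controls, and Mef2b among them held 4 counts in all. Of these 10 genes, 8 were tested, and they did not move as a set. In C. tropicalis against C. albicans 4 were above 0 and 4 below, with log2 fold changes of -1.58 to 2.19. The germinal centre sum was highest in C. albicans 2 (234 CPM), the library with the lowest B cell sum (39.8 CPM). Control 1 was the highest control in the germinal centre sum (155 CPM) and the lowest in the B cell sum (51.5 CPM). In these libraries the germinal centre sum therefore did not follow the B cell markers. The part of these cell types in the members' values was not tested.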

How the data were processed

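RNA was extracted from colon with RNeasy columns and made into NEBNext Ultra libraries, per the labels' protocols. The authors deposited one table of counts, whole reads per Ensembl gene in 8 libraries, with no normalization. Per the submitters' processing notes, the tools were TopHat2 2.0.12, HTSeq 6.1 (as written there) and DESeq 1.18.0, with build mm10. What annotation release, filter and strandedness the counting used is not given in the sources used here. Gene symbols and exon lengths came from GENCODE M21 on the same build, which lacked 233 of 52636 identifiers, holding 0.00317% of counts. No pair of libraries within a group differed by as little as sampling noise.

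Genes were tested with edgeR 4.0.16 (R 4.3.3) by its quasi-likelihood F-test on the counts as deposited, with TMM scaling and filterByExpr on the 3 groups. One fit of all 8 libraries with group as the only term gave 3 contrasts, with 5 residual degrees of freedom (4.05 prior) and a common BCV, the biological variation between libraries, of 0.243. The Benjamini-Hochberg adjustment ran over 16107 genes, with a threshold of 0.05. A standard error is the log2 fold change divided by the square root of F. A count of 0 allows 3 counts, or 0.152 to 0.185 CPM, for counting error only. The fit was tested on simulated data with known changes. Alternatives were DESeq2 1.42.0, its size factors in edgeR, no filter and a filter of CPM 1 in 3 libraries, the 2 compared groups alone, a replicate block, a smooth muscle score as covariate, and each library left out. The medians without Plk1 were added after seeing the data. A lone C. tropicalis library in such a fit is taken to vary like the remaining groups.

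The members, the lists and the tests were chosen with earlier results of these data known. Members named with a test were 17 chosen to cover each role, any member past the threshold and the 3 with the smallest p. For each other list the gene with the smallest p was named. Other members, Car1, Cdx2, Ern2 and overlapping genes were named after their values were seen. Motifs were searched on both strands of the RefSeq windows. Figures were drawn with matplotlib 3.10.9.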

Additional observations from a re-analysis of the deposited data

How the results depend on the processing

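No member passed edgeR's threshold in either comparison with control under any alternative. For C. tropicalis against C. albicans the count of members called higher was 0, against 1 with no filter (Mki67), 1 in the fit of the 2 groups (Mki67), 5 with DESeq2 and 0 to 8 with 1 library left out. Calls over all genes moved widely. For C. tropicalis against C. albicans they numbered 0, against 1127 with no filter, 2 with the muscle score, 858 in the fit of the 2 groups, 1753 with DESeq2 and 0 to 1315 with 1 library left out. For C. tropicalis against control they numbered 5, against 71 with no filter, 0 with the muscle score, 0 in the fit of the 2 groups, 389 with DESeq2 and 0 to 192 with 1 library left out. For C. albicans against control they numbered 7, against 119 with no filter, 17 with the muscle score, 464 with DESeq2 and 0 to 254 with 1 library left out. The cause was not tested.

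With 1 library left out, the members' median log2 fold change ran from 0.67 (C. albicans 3 omitted) to 1.20 (C. albicans 1 omitted) for C. tropicalis against C. albicans, and from 0.20 to 0.84 for C. tropicalis against control. For C. albicans against control it ran from -0.70 to 0.02, where it changed sign without control 1. With the muscle score the medians were 0.85, 0.46 and -0.42, while the lowest adjusted p of a member between the yeasts was 0.764, against 0.103 without the score. That score was confounded with C. tropicalis, so neither value tells muscle content and yeast apart. With Plk1 left out the medians were 0.87, 0.42 and -0.38. The replicate number did not pair the libraries (correlations of same-numbered deviations were -0.39 to 0.16). With it as a block the medians were 0.70, 0.31 and -0.34, calls over all genes were 0 in both comparisons with control, and no member was called.

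Some members named with a test changed direction, and the cause was not tested. With the muscle score Plk1 had a log2 fold change of -0.73 for C. tropicalis against C. albicans and -0.31 against control, and Ndc80 -0.080 against control. With the replicate block Cenpa had -0.10 for C. tropicalis against control. With 1 library left out, Plk1 ran from -0.10 to 0.24 between the yeasts, and Cenpa from -0.14 to 0.48 for C. tropicalis against control. For C. albicans against control the ranges were -0.70 to 0.097 (Top2a), -0.79 to 0.055 (Foxm1), -0.45 to 0.027 (Mybl2), -0.65 to 0.11 (Ccna2), -0.53 to 0.078 (Ccnb1), -0.65 to 0.19 (Cdk1), -0.058 to 0.31 (Plk1), -0.57 to 0.0027 (Aurkb), -0.88 to 0.091 (Bub1), -0.68 to 0.089 (Cenpa), -0.28 to 0.31 (Ube2c) and -0.59 to 0.070 (Cdc20). Groups of 2 and 3 libraries limit every comparison, and the members with the fewest counts, 28 in a library at the lowest, carry the most counting error.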

Other observations

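The balance of late to early cycle transcripts varied within groups more than between them. The summed CPM of the 38 members without Plk1, divided by that of the S phase list, was 0.567 and 0.487 in the C. tropicalis libraries, 0.638, 0.540 and 0.340 in the C. albicans libraries and 0.731, 0.473 and 0.425 in the controls. The highest value was that of control 1 and the lowest that of C. albicans 3. Means were 0.527 ± 0.057 with C. tropicalis (SD, n = 2), 0.506 ± 0.152 with C. albicans (SD, n = 3) and 0.543 ± 0.164 in controls (SD, n = 3). The S phase sum itself was 1453 and 1376 CPM with C. tropicalis, 926, 631 and 910 CPM with C. albicans and 1079, 962 and 849 CPM in controls. C. albicans 3 thus had a low mitosis sum with an S phase sum close to that of C. albicans 1.

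Members with and without TTTGAA in their promoter window had similar fold changes. For the 26 with it and the 7 without it, the median log2 fold changes were 0.83 and 0.82 for C. tropicalis against C. albicans, 0.39 and 0.42 for C. tropicalis against control, and -0.38 and -0.40 for C. albicans against control. The members without it were Birc5, Bub1, Ccnb1, Cenpe, Mybl2, Nuf2 and Nusap1. No test was made of this split.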
